A study of Mus musculus with 6 samples.

Results

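The AP-1 and immediate-early genes described here are Fos, Fosb, Fosl1, Fosl2, Jun, Junb, Jund, Egr1, Ier3 and Myc. They were picked by name from the gene table, which gives 10 genes of 41819. The cells were mouse 3T3 embryonic fibroblasts, 1 puromycin-resistant clone with a lentiviral cassette that produces human PARG (hPARG), the enzyme that degrades poly(ADP-ribose), from a doxycycline-inducible promoter. All 6 cultures carried the cassette and puromycin. Of these, 3 received 500 ng/ml doxycycline (the hPARG dishes) and 3 did not (the control dishes), and RNA was taken after 72 h. The sample labels speak of wells and the study's methods of dishes, and p-values measure the spread between these cultures of 1 clone. Doxycycline was given only with the induced cassette, so the drug and hPARG cannot be told apart. The methods describe fresh medium for both groups at the start and again during the exposure.

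FOS proteins (Fos, Fosb, Fosl1, Fosl2) pair with JUN proteins (Jun, Junb, Jund) through a leucine zipper to form AP-1, a factor that binds DNA at TGANTCA and related sites. In fibroblasts the immediate-early genes are transcribed within minutes of serum or growth factor addition, without new protein synthesis, through MAP kinases and the serum response factor SRF. Fos and Egr1 transcripts then decay quickly, while the FOS-related genes Fosl1 and Fosl2, Jund and Myc are also transcribed in growing cells.

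Control dishes 1 to 3 held 25263818, 22512587 and 21619908 counts on genes, and hPARG dishes 1 to 3 held 22136902, 23897120 and 22482282. A floor of 3 counts in a dish equals between 0.119 and 0.139 CPM (counts scaled to a common library size), and covers counting error only. Levels between dishes are given as CPM with TMM normalization, and levels between genes as the deposited RPKM, which also divides by gene length. Both dishes numbered 2 stood apart from the others. A principal component analysis of log2 CPM put them at 21.6 (control) and 24.7 (hPARG) on its leading axis (42% of the variance), and the other 4 dishes between -27.4 and -3.17. Across genes, deviations from the group mean went with exon length in every dish. Spearman correlations were 0.53 and 0.521 in the dishes numbered 2 and between -0.513 and -0.252 in the others. For each gene the deviations cancel out within a group, so the values of its dishes are not independent. Control dish 3 (-0.513) also lay farthest out on the other side of the leading axis, at -27.4. The dishes numbered 2 were on the same side in both groups, so the main results are given with and without these 2 dishes.

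The cassette has no gene of its own in the table. The mouse gene Parg, which was not targeted, had 1246, 1317 and 1032 counts without and 1095, 1400 and 1096 with doxycycline (log2 fold change 0.04, standard error 0.112). The fibroblast label was checked against marker genes. Vim, an intermediate filament gene of mesenchymal cells, averaged 1548 RPKM over all dishes. Of the other fibroblast markers, Col1a2, S100a4, Fn1, Thy1 and Col1a1 had control means between 43.8 and 1344 RPKM, Col3a1 9.49 and Pdgfra 6.19 RPKM. Pdgfrb (0.601 RPKM) and Dcn (0.195 RPKM) were low in control. Of 6 epithelial markers none passed the filter on low counts, and their summed level was between 0.269 and 0.464 RPKM in a dish, led by the keratin gene Krt8 at 0.164 RPKM. Of 6 leukocyte markers 1 passed, Cd68 (log2 fold change -0.20), with Adgre1 and Cd3e at 0 counts in every dish and summed levels between 0.407 and 0.83 RPKM. Of 5 endothelial markers 1 passed, Kdr (log2 fold change 0.03), with summed levels between 0.143 and 0.266 RPKM.

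Among the 10 genes, Egr1 and Fos were higher in hPARG than in control dishes without overlap between the groups, and Fosl1 was lower without overlap. Egr1 differed by 1.70-fold, Fos by 1.86-fold and Fosl1 by 1.26-fold, while Myc was 1.26-fold lower with groups that barely touched. Fosb, Fosl2, Jun, Junb, Jund and Ier3 had overlapping groups. None of the 10 genes passed edgeR's quasi-likelihood test at a false discovery rate (FDR, adjusted over 11509 tested genes) of 0.05 with a difference above 2-fold, which 0.0869% of all tested genes did. The same 0 of 10 holds for an FDR of 0.05 at any difference, where the share of all tested genes was also 0.0869%. DESeq2 called 0 of the 10 at an FDR of 0.05 with more than 2-fold, and at any difference it called 1 of the 10, Egr1 (FDR = 0.00328), and 0.408% of the genes it tested. At an unadjusted p under 0.05 in edgeR there were 4 of the 10, namely Egr1, Fosl1, Fos and Myc, against 3.95% of all tested genes. This count rests on single dishes, since it was 1 (Egr1) without hPARG dish 1 and 1 (Egr1) without hPARG dish 3, against 3.8% and 2.25% of all tested genes. It was 2 without control dish 3 (Egr1 and Fosl1, against 3.12% of all). With a correction for gene length it was 2 (Egr1 and Fos, against 5.4% of all), while the log2 fold changes were -0.30 for Fosl1 and -0.32 for Myc. Groups that did not overlap were found for 2 of the 10 in the higher direction, where 3.61% of all tested genes had them, and for 1 of the 10 in the lower direction, where 6% did. The log2 fold changes of 3 genes were above 0 and those of 7 below, with a median of -0.11, and the median of all tested genes was 0.0038. Leaving out both dishes numbered 2 gave 4 above and 6 below 0, with a median of -0.04. All 10 genes passed the filter on low counts. Since RNA came from whole cultures, a change in the number of cells that transcribe a gene and a change in RNA per cell cannot be told apart.

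**Figure D1:**
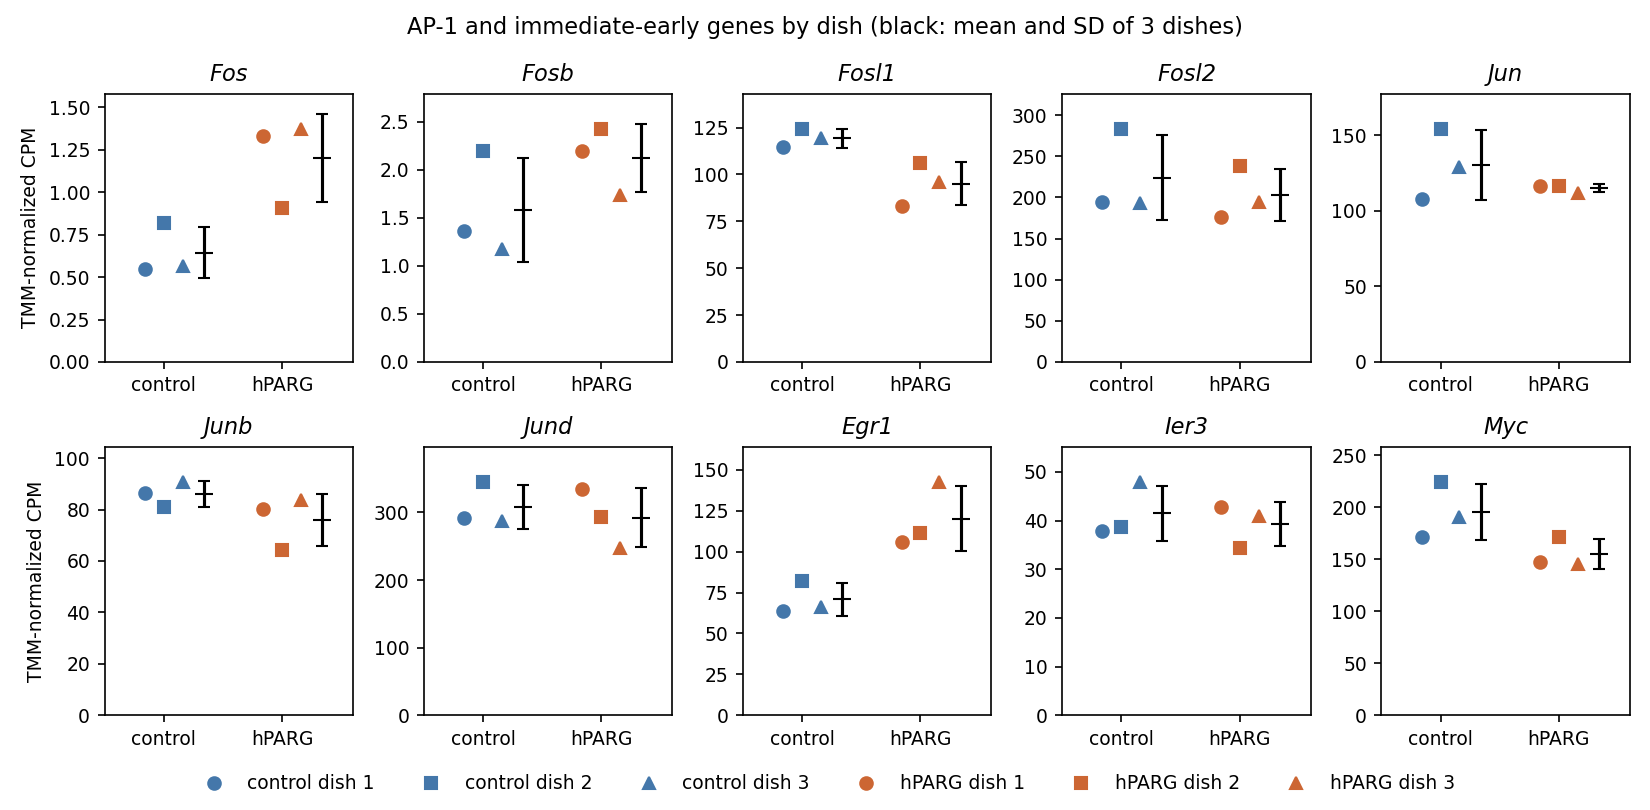
TMM-normalized CPM (vertical axis, from 0, scaled per gene) of the 10 genes in each of the 3 control and 3 hPARG dishes, with the mean and SD of each group in black. The hPARG dishes lie above all control dishes for Fos and Egr1 and below them for Fosl1, and the groups overlap for the other 7 genes.

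Egr1 encodes a zinc finger factor that is induced by serum and by stress (ENSMUSG00000038418, chr18:34859823-34864984, GRCm38). In dishes 1 to 3 its level was 63.5, 82.3 and 66.5 CPM for control and 106, 112 and 143 CPM for hPARG. Every hPARG dish lay above the highest control dish, which was dish 2, and hPARG dish 3 was the highest of all. The mean was 70.8 ± 10.1 CPM in control and 120.2 ± 19.8 CPM in hPARG dishes (SD, n = 3). Its log2 fold change was 0.76 (standard error 0.154, 95% interval 0.41 to 1.12). In all, 63 of the 11509 tested genes had a higher one. In edgeR its FDR was 0.419, with an unadjusted p of 0.00119 that ranked it number 29 of all tested genes, and it was higher in 3 of 3 hPARG dishes. Without both dishes numbered 2 the log2 fold change was 0.94 (standard error 0.124) with an edgeR FDR of 0.00245. Over 16 alternative fits its log2 fold change lay between 0.62 and 0.94, above 0 in each, and its FDR between 0.00119 and 1.00. The FDR was under 0.05 in 4 of these fits and in none of the 6 that left out a single dish. The 4 were DESeq2, the fit without both dishes numbered 2, and a replicate block without and with a length correction. The block pairs dishes of the same number, a pairing that is not established, and it gave the lowest FDR.
The NAB corepressors bind EGR proteins, and Nab2 is itself a target of Egr1. Nab1 averaged 106.3 CPM without and 102.5 CPM with doxycycline (log2 fold change -0.05), and Nab2 had 79.8 and 79.7 CPM. Neither passed the test or an unadjusted p of 0.05. The groups of Nab1 did not overlap, in the lower direction, where 6% of all tested genes had no overlap.

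Fos is the founding member of its family (ENSMUSG00000021250, chr12:85473890-85477273). It had few reads, with 14, 19 and 12 counts in control dishes and 29, 22 and 30 counts in hPARG dishes, all above the floor of 3. In CPM this was 0.546, 0.817 and 0.566 in control and 1.33, 0.907 and 1.38 in hPARG dishes. The groups came closest in the dishes numbered 2, where the control dish was the highest of its group and the hPARG dish the lowest of its own. The mean was 0.643 ± 0.151 CPM in control and 1.204 ± 0.259 CPM in hPARG dishes (SD, n = 3). On the log2 scale the difference was 0.90 (standard error 0.324, 95% interval 0.15 to 1.65), a wide interval at this depth. The unadjusted p in edgeR was 0.0251 and the FDR 0.999. Without both dishes numbered 2 the log2 fold change was 1.28 (standard error 0.501, edgeR FDR 0.608).
Fosb, a paralog that also gives the stable splice form ΔFosB, lies on the minus strand (ENSMUSG00000003545, chr7:19302696-19310051). It had 1.37, 2.19 and 1.18 CPM in control and 2.20, 2.43 and 1.74 CPM in hPARG dishes. The groups overlapped through control dish 2, which lay above hPARG dish 3 and just under hPARG dish 1. The log2 fold change was 0.43 (standard error 0.295, 95% interval -0.26 to 1.11, edgeR FDR 0.999), with the hPARG dish higher in each of the 3 same-numbered pairs. It was 0.63 without both dishes numbered 2, 0.74 without control dish 2 and 0.26 without control dish 3.

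Windows of 250 bases before the RefSeq transcription start were found for 7 of the 10 genes in a table of RefSeq promoters (GRCm38.p6), and Fosl1, Egr1 and Myc had no entry. Those of Fos, Fosb and Jun are shown, since Fos and Fosb were the AP-1 genes with log2 fold changes above 0 and Jun is the partner they bind. Capitals mark TGACG (the core of the cyclic AMP response element), TGACATCA (an AP-1 variant described in the Jun promoter) and TATAAA, each searched on both strands. The windows are chr12:85473640-85473889 (plus strand, Fos), chr7:19310046-19310295 (minus strand, Fosb) and chr4:95052223-95052472 (minus strand, Jun). They lie before the gene as GENCODE places it, except for the last 6 bases of the Fosb window. The RefSeq start of some other genes differs from that of GENCODE, so that all 250 bases of the Fosl2 window and 29 bases of the Ier3 window lie inside the GENCODE gene, while the Junb window ends 30 bases and the Jund window 1210 bases before it. The motif counts rest on the RefSeq windows.
Fos: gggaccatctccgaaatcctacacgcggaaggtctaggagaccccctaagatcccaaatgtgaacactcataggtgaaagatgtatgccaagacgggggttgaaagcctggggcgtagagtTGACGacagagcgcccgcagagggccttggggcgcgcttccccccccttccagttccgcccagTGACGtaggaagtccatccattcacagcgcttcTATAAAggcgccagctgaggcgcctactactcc
Fosb: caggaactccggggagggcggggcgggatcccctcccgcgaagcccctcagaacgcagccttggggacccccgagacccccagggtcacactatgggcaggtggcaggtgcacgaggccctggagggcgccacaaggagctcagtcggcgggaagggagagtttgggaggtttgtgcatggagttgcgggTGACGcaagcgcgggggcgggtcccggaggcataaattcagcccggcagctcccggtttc
Jun: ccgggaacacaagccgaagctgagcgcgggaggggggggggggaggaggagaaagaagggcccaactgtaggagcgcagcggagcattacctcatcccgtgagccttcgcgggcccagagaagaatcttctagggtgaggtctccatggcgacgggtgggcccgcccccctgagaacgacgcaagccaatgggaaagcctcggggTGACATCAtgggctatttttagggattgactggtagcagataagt
TGACG was present in the windows of Fos, Fosb and Junb (3 of 7), against 17.75% of 32817 promoter windows of the same length. TATAAA was present in that of Fos and TGACATCA in that of Jun, against 12.37% and 2.931% of all windows. The AP-1 consensus TGANTCA was in 0 of the 7 windows (6.753% of all), and the CArG box, the site of SRF, in 0 of the 7 (1.469% of all). Only these 250 bases were searched and Egr1 had no window, so these counts do not show that a gene lacks such a site. The kappa-B site was found in the windows of Fos, Fosb, Fosl2 and Ier3 (4 of 7, against 7.249% of all). GC content was 58.4% (Fos), 68.8% (Fosb) and 61.2% (Jun), with a median of 52.4% over all windows. A match describes the letters only, and binding was not measured.

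Fosl1, which encodes FRA-1 and is abundant in proliferating and transformed fibroblasts, was the more abundant FOS transcript per length with Fosl2 next (ENSMUSG00000024912, chr19:5447547-5455946). It had 114, 125 and 119 CPM in control and 83.1, 106 and 95.9 CPM in hPARG dishes. All hPARG dishes lay under all control dishes, and the dishes numbered 2 were the highest of their groups. The mean was 119 ± 5.05 CPM in control and 94.96 ± 11.5 CPM in hPARG dishes (SD, n = 3). This gives a log2 fold change of -0.33 (standard error 0.114, 95% interval -0.60 to -0.07), with an unadjusted p of 0.0208 and an FDR of 0.999 in edgeR. Without both dishes numbered 2 it was -0.38 (standard error 0.0969, edgeR FDR 0.214). Of the exon bases of Fosl1, 57.2% also lie in exons of Ccdc85b on the other strand, and the sources used here do not state whether counting used strand, so its level is uncertain. Control dishes held 2682, 2323 and 2425 counts on Ccdc85b and hPARG dishes 2349, 1903 and 1984 (log2 fold change -0.20, edgeR FDR 0.999).
Fosl2 encodes FRA-2 (ENSMUSG00000029135, chr5:32135801-32157842). It had 195, 284 and 193 CPM in control and 176, 238 and 195 CPM in hPARG dishes. The dishes numbered 2 were the highest in both groups, and the other 4 lay close together across the groups. The log2 fold change was -0.15 (standard error 0.183, 95% interval -0.57 to 0.28), and it was -0.06 without both dishes numbered 2 and 0.06 without control dish 2, so no direction can be given.

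Among the JUN genes, Jun, the strongest activator of the family, had 108, 155 and 129 CPM in control and 117, 117 and 112 CPM in hPARG dishes (ENSMUSG00000052684, chr4:95049034-95052222). The hPARG dishes were tightly grouped within the range of the control dishes, of which dish 1 was the lowest of all 6. Its log2 fold change was -0.18 (standard error 0.137) with all dishes, -0.05 without both dishes numbered 2, -0.04 without control dish 2 and -0.30 without control dish 1.
Junb, which can restrain Jun, had 86.6, 80.9 and 90.8 CPM in control and 80.1, 64.5 and 83.6 CPM in hPARG dishes (ENSMUSG00000052837, chr8:84974484-84978718). The hPARG dish was the lower in each of the 3 same-numbered pairs, but hPARG dish 3 lay above control dish 2. Its log2 fold change was -0.18 (standard error 0.123) with all dishes, -0.11 without both dishes numbered 2 and -0.07 without hPARG dish 2.
Jund, a growth-restraining member with steady transcription, had 292, 345 and 287 CPM in control and 335, 293 and 248 CPM in hPARG dishes (ENSMUSG00000071076, chr8:70698949-70700616). The groups overlapped widely, and the log2 fold change of -0.08 (standard error 0.139) was 0.03 without hPARG dish 3 and 0.016 without both dishes numbered 2. All 3 JUN genes had an edgeR FDR of 0.999. Genes on the other strand cover 7.28% of the exon bases of Jun (Junos), 7.52% of those of Junb (Prdx2) and 52.6% of those of Jund (Gm11175). Junos and Gm11175 had 0 counts in every dish, and Prdx2 had between 8534 and 12669 counts.

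Levels of the 10 genes per length spanned a wide range. In control dishes the order by mean RPKM was Jund (172 ± 23.6), Myc (67.0 ± 10.8), Fosl1 (59.5 ± 3.89), Junb (44.1 ± 1.13), Jun (38.1 ± 7.56), Ier3 (33.96 ± 3.52), Fosl2 (32.0 ± 8.39), Egr1 (14.7 ± 2.51), Fosb (0.390 ± 0.146) and Fos (0.284 ± 0.0754), each as SD over 3 dishes. Jund stood above all others in every dish. Myc and Fosl1 overlapped, as did each neighbouring pair from Junb to Fosl2 and the pair of Fosb and Fos. Egr1 lay apart from Fosl2 above it and Fosb below it in the control dishes. In hPARG dishes Egr1 reached 24.3 ± 3.43 RPKM and overlapped with Fosl2 (28.2 ± 4.96 RPKM), and Fos (0.517 ± 0.101 RPKM) and Fosb (0.511 ± 0.0968 RPKM) were level. The gene lengths behind RPKM are those of the authors' software, and the library total is not stated. With TMM-normalized CPM per kilobase of GENCODE exon length, which changes both, control levels were 23.2 for Fosl2, 37.4 for Junb and 0.253 for Fosb. On that scale Jun (40.96) came before Junb, and Fos (0.273) before Fosb, both pairs being among those that overlap.

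**Figure D2:**
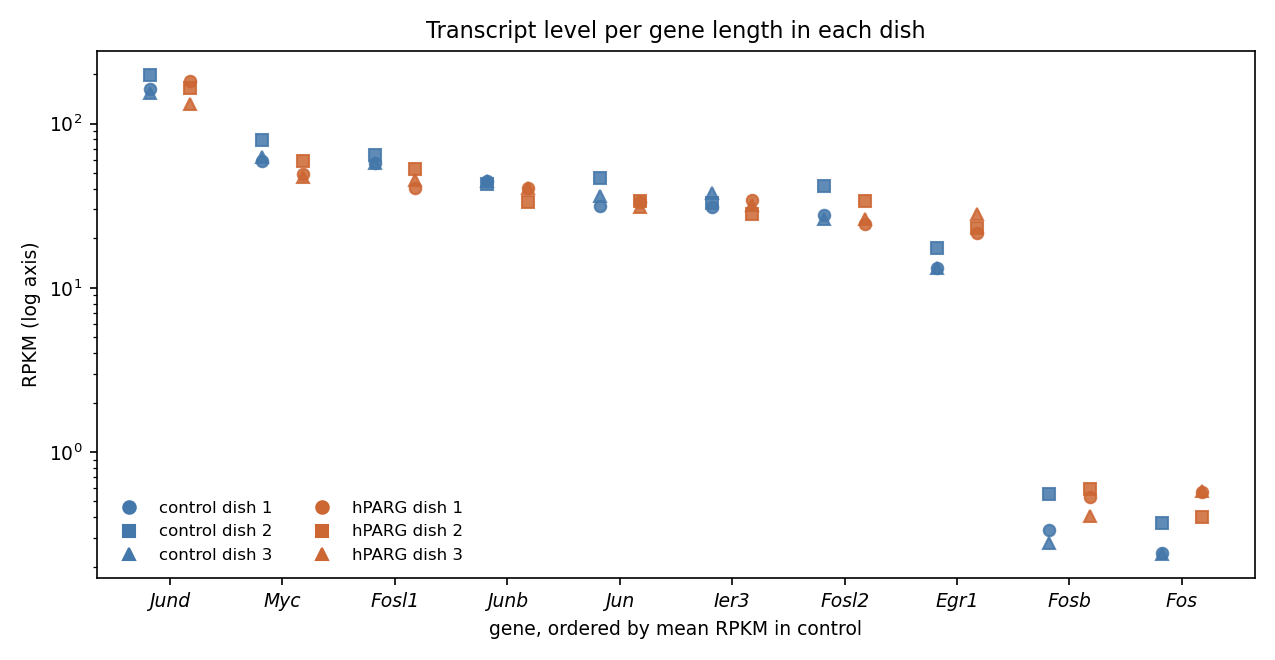
Deposited RPKM (vertical log axis) of the 10 genes in each dish, ordered by the control mean, with control in blue and hPARG in orange and the dish number given by the symbol. Fos and Fosb lie under 1 RPKM in every dish, and the other 8 genes above 10 RPKM.

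By RPKM, Jund held most of the JUN transcripts and Fosl1 most of the FOS transcripts, the latter with a level that is uncertain for its overlap with Ccdc85b and an order that turns by counts. Fosl1 made up 65.0 ± 4.28% of the summed RPKM of the FOS genes in control and 61.4 ± 1.10% in hPARG dishes, and Fosl2 made up 34.3 ± 4.14% and 37.2 ± 1.23%. The share of Fos was 0.305 ± 0.0376% in control and 0.706 ± 0.219% in hPARG dishes, lowest in the latter in dish 2 at 0.456%, which still lay above the highest control dish at 0.349%. The share of Fosb was 0.415 ± 0.0972% in control and 0.681 ± 0.12% in hPARG dishes, without overlap between the groups. Its own level did overlap, at 0.556 RPKM in control dish 2 and 0.407 RPKM in hPARG dish 3. A share also depends on the summed level of the family, given below. Jund made up 67.5 ± 1.85% of the JUN transcripts in control and 68.95 ± 3.75% in hPARG dishes, Junb 17.6 ± 2.32% and 16.7 ± 3.00%, and Jun 14.9 ± 1.53% and 14.3 ± 1.198%, all within the spread of the dishes. By raw counts Fosl1 held 34.99% and Fosl2 64.4% in control. Summed over each family, the FOS genes had 92.1 ± 12.5 RPKM in control and 75.5 ± 11.1 in hPARG dishes, and the JUN genes 254.0 ± 29.2 and 230.0 ± 26.7, with overlap between the groups in both families (SD, n = 3).

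**Figure D3:**
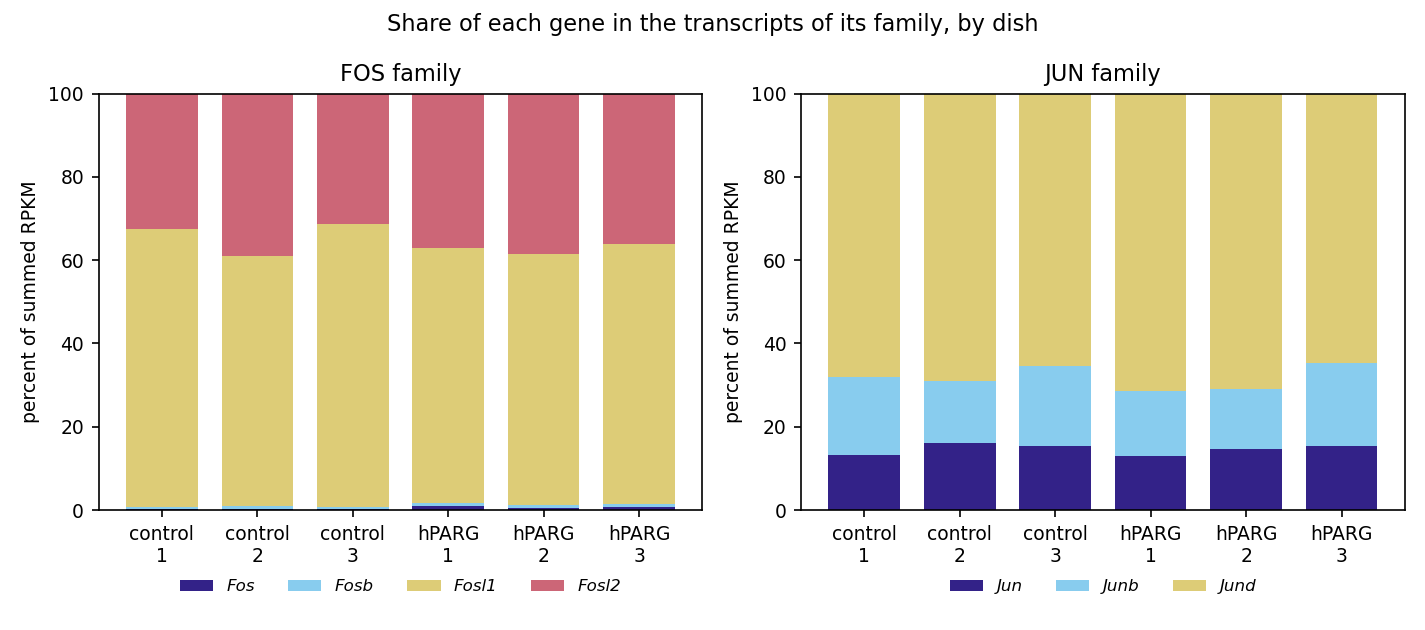
Share of each gene in the summed RPKM of the FOS family (left) and the JUN family (right), in percent, in each of the 6 dishes. Fosl1 and Fosl2 fill nearly all of the FOS bars and Jund most of the JUN bars in both groups, and the Fos and Fosb segments at the base are thin.

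Myc encodes a bHLH zipper factor that pairs with MAX and drives genes of growth and ribosome production (ENSMUSG00000022346, chr15:61985391-61990374). It had 171, 225 and 191 CPM in control and 147, 172 and 145 CPM in hPARG dishes. The groups touched only where hPARG dish 2 (171.7 CPM) lay just above control dish 1 (171.4 CPM), and the hPARG dish was lower in each same-numbered pair. The mean was 196 ± 26.9 CPM in control and 155 ± 14.6 CPM in hPARG dishes (SD, n = 3). This gives a log2 fold change of -0.34 (standard error 0.13, 95% interval -0.64 to -0.04), with an unadjusted p of 0.0326 and an FDR of 0.999 in edgeR, and it was -0.30 (edgeR FDR 0.371) without both dishes numbered 2.
Of 10 partners in the MYC and MAX network 8 were tested and 0 were called by edgeR, with a median log2 fold change of 0.05. Mxd4, a MAX partner that opposes MYC, was the single one with an unadjusted p under 0.05, in the higher direction. This is 12.5% of the tested ones, against 1.42% of all tested genes. Its level was 24.1 ± 1.61 CPM in control and 31.5 ± 1.68 CPM in hPARG dishes. Its log2 fold change was 0.39 (edgeR FDR 0.717), and its groups did not overlap. The groups of Max itself did not overlap either, in the lower direction (log2 fold change -0.15). Of all tested genes, 3.61% were higher and 6% lower without overlap. Of 15 textbook MYC targets all were tested, 0 had an unadjusted p under 0.05, and 11 had log2 fold changes below 0 with a median of -0.05. The ribosome production genes Bop1 (-0.20) and Polr1b (-0.21) had the smallest p-values among them.

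Ier3, an early response gene that modulates apoptosis and encodes no DNA-binding factor, had 37.8, 38.7 and 48.0 CPM in control and 42.9, 34.3 and 41.0 CPM in hPARG dishes (ENSMUSG00000003541, chr17:35821684-35822923). Control dish 3 was the highest and hPARG dish 2 the lowest, and the others were mixed. The log2 fold change was -0.07 (standard error 0.137, edgeR FDR 0.999), and it was -0.03 without both dishes numbered 2, 0.04 without control dish 3 and 0.015 without hPARG dish 2.

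**Figure D4:**
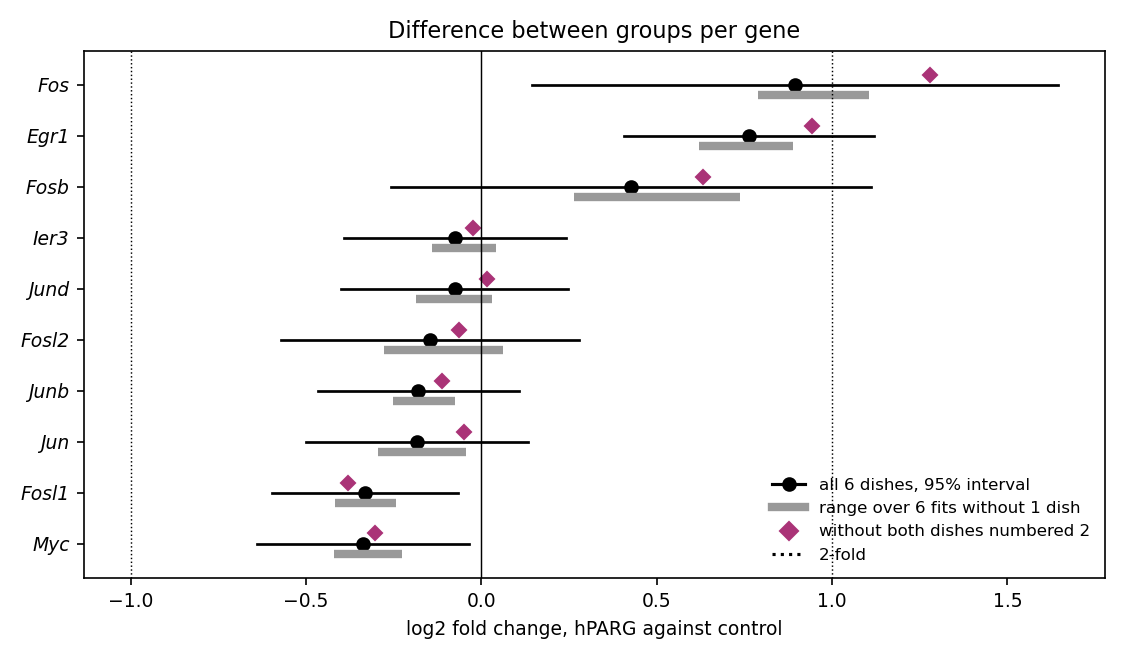
Log2 fold change of hPARG against control (horizontal axis) for the 10 genes, as the fit of all 6 dishes with its 95% interval (black), the range over the 6 fits that each left out 1 dish (grey bar) and the fit without both dishes numbered 2 (diamond). The intervals of Fos and Egr1 lie above 0, those of Fosl1 and Myc below 0, and the other 6 cross 0.

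Gene profiles over the 6 dishes were compared by the root mean square difference of log2 CPM after centring. For Egr1, whose own spread on this scale was 0.419, the nearest tested genes were Klhl30 (0.126), Arhgap29 (0.149) and Dyx1c1 (0.154). For Fos, with a spread of 0.477, Egr1 itself was the nearest of all tested genes (0.181), followed by Cacng8 (0.189). Fos was not among the 3 nearest genes of Egr1. Centring keeps the difference between groups, so genes that differ alike between the groups come out near each other. With 12 to 30 counts in a dish, counting error in Fos is also part of its distances. Shared regulation was not tested. Both Fos and Egr1 were highest in dish 2 among the control dishes. Among the hPARG dishes the lowest was dish 2 for Fos and dish 1 for Egr1, and Fos differed by a single read between dishes 1 and 3.

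Other immediate-early and early response genes mostly had log2 fold changes below 0, unlike Fos and Egr1. The list does not hold Dusp1, an immediate-early gene counted with the phosphatases, whose log2 fold change was 0.41. Of 45 such genes 42 were tested, and 0 were called by edgeR. At an unadjusted p under 0.05 there was 1 higher gene (2.38% of the tested ones, against 1.42% of all tested genes) and there were 8 lower genes (19%, against 2.54%). The median log2 fold change was -0.09, with 31 genes below 0. Without both dishes numbered 2 these counts were 2 higher and 7 lower of 41 tested, beside 3.48% and 3.3% of all tested genes, and 26 of them were below 0.
The higher gene was Ccn1, which encodes a secreted matrix protein, at 646 ± 54.5 CPM in control and 823 ± 28.3 CPM in hPARG dishes (log2 fold change 0.35). The growth-restraining genes Gadd45a (-0.62), Gadd45b (-0.43) and Btg1 (-0.32) were among the lower genes. Ier5, a regulator of the heat shock response, had 204 ± 8.87 and 150 ± 13.1 CPM (-0.45), and Errfi1, a feedback inhibitor of the EGF receptor, had 61.0 ± 5.93 and 44.8 ± 0.77 CPM (-0.45). The transcription factor genes Klf10 (-0.38), Klf6 (-0.36) and Nfil3 (-0.32) completed the set. The edgeR FDR of these 9 genes lay between 0.547 and 0.999. Of all 42 tested genes of the list, 2 were higher without overlap between groups (Ccn1 and Egr2), where 3.61% of all tested genes were, and 8 were lower without overlap, where 6% were. These 8 were Ier5, Errfi1, Btg1, Gadd45a, Gadd45b, Klf6, Klf10 and the kinase gene Plk2. Egr2 and Plk2 are named here after their values were seen. Gadd45a stood at 32.2 CPM in control dish 1 and at 56.0 and 52.8 CPM in the other control dishes, against 30.8, 29.8 and 31.4 CPM in hPARG dishes 1 to 3.

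Upstream of these genes stand SRF with its cofactors and the MAP kinases. All 6 SRF and cofactor genes were tested, with a median log2 fold change of 0.06, and 0 had an unadjusted p under 0.05. The ternary complex factor genes Elk4 (0.27) and Elk1 (0.07) had the smallest p-values among them. Of 17 MAP kinase and MAP kinase kinase genes 16 were tested, with a median of 0.03 and 0 at an unadjusted p under 0.05, and Map2k7, an activator of the JUN kinases, had 0.12 and Mapk12 -0.36. The number of MAP kinase genes above 0 was 12 with TMM and 8 with RPKM.
Of 10 dual-specificity phosphatases that switch off MAP kinases 8 were tested, with a median of -0.14. Dusp1, itself an immediate-early gene, had 21.97, 19.9 and 24.1 CPM in control and 31.3, 26.9 and 29.2 CPM in hPARG dishes. Every hPARG dish lay above every control dish, at a log2 fold change of 0.41 (standard error 0.116, edgeR FDR 0.821). Dusp6 was lower without overlap, at 30.6, 30.9 and 32 CPM in control and 28.2, 29.3 and 29.5 CPM in hPARG dishes. It is named here after its values were seen (log2 fold change -0.10, edgeR FDR 0.999). Of all tested genes, 3.61% were higher and 6% lower without overlap between groups. Dusp5, which acts on nuclear ERK, had -0.24.
With both dishes numbered 2 left out, the medians were 0.06 for SRF and its cofactors, 0.014 for the MAP kinases (9 of 16 above 0), -0.09 for the phosphatases, 0.0023 for the MYC and MAX network and -0.04 for the MYC targets. The counts at an unadjusted p under 0.05 were again 1 higher phosphatase, 1 higher gene of the MYC and MAX network and 0 in the other 3 lists, where 3.48% of all tested genes were higher and 3.3% lower.

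Of 15 other bZIP genes that can join AP-1 complexes 10 were tested, with a median log2 fold change of -0.01 and 5 genes on either side of 0, which became 3 above and 7 below 0 with library size only or RPKM, and 7 above and 3 below without both dishes numbered 2, so no direction can be given. Atf3, Batf, Batf2 and Batf3 were among those that did not pass the filter. Maf, a large MAF factor, had 14.7, 25.4 and 17.2 CPM in control and 13.3, 14.9 and 12.9 CPM in hPARG dishes (log2 fold change -0.48, unadjusted p 0.0468, edgeR FDR 0.999). Its groups overlapped through hPARG dish 2. The small MAF gene Maff had 0.10.
Of 20 textbook targets of AP-1 16 were tested and 0 were called by edgeR, with 2 higher and 2 lower at an unadjusted p under 0.05 (12.5% each, against 1.42% and 2.54% of all tested genes) and a median of -0.05. Without both dishes numbered 2 there were 1 higher and 3 lower (3.48% and 3.3% of all tested genes), and Mt2 was under an edgeR FDR of 0.05 (log2 fold change -0.98, FDR 0.00657). Mmp3, Mmp10, Mmp13 and Il6 did not pass the filter. Plau, the urokinase gene, averaged 18.5 ± 1.93 CPM without and 25.1 ± 3.70 CPM with doxycycline (log2 fold change 0.44, edgeR FDR 0.964). Hmox1, which encodes heme oxygenase, had 80.1, 79.5 and 81.9 CPM in control and 57.5, 60.2 and 63.5 CPM in hPARG dishes. These groups lay well apart, and the log2 fold change was -0.41 (standard error 0.0911, edgeR FDR 0.468). The metallothionein gene Mt2 had 510, 327 and 530 counts in control dishes against 224, 201 and 271 in hPARG dishes (log2 fold change -0.93, edgeR FDR 0.683). Mt1 had 7, 6 and 7 counts against 10, 19 and 20, and its log2 fold change of 1.32 rests on these few reads.

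**Figure D5:**
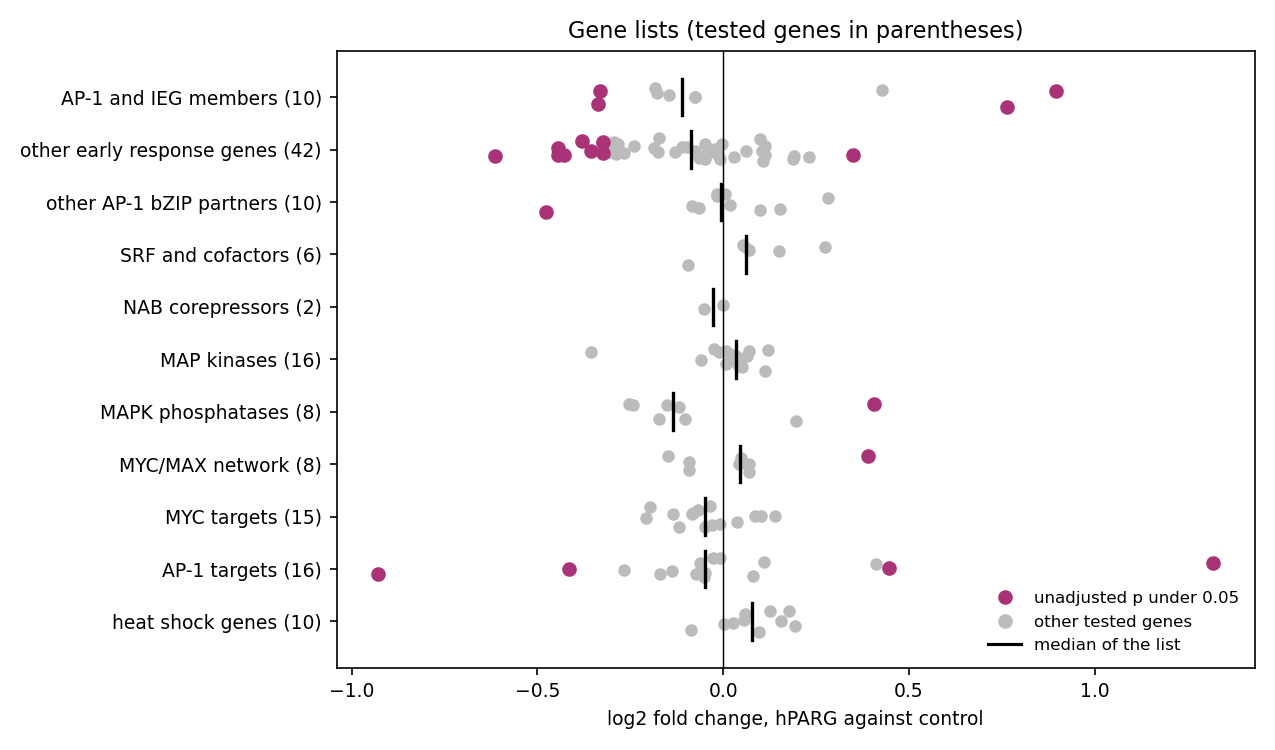
Log2 fold change of hPARG against control (horizontal axis) for the tested genes of each list, 1 point a gene, with the median of the list as a black bar and genes at an unadjusted p under 0.05 in purple. Other early response genes have 8 such genes below 0 and 1 above, and no gene of any list shown was called by edgeR.

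As signs of handling, 10 heat shock genes were looked at, and 0 had an unadjusted p under 0.05 in edgeR. Their median log2 fold change was 0.08, with 9 genes above 0 that became 7 with library size only or RPKM and 6 without both dishes numbered 2. The chaperone genes Hspa8 (0.19) and Dnajb1 (0.18) had the smallest p-values. Among fibroblast markers, 9 of 10 were tested (Dcn did not pass the filter), with a median of 0.30. The collagen genes Col1a1 (0.58) and Col3a1 (0.39) and the surface marker gene Thy1 (0.30) were higher and the receptor gene Pdgfra (-0.40) was lower, each at an unadjusted p under 0.05, without overlap between groups and with an edgeR FDR between 0.946 and 0.999. These are 33.3% higher and 11.1% lower of the tested markers, against 1.42% and 2.54% of all tested genes at an unadjusted p under 0.05. Groups without overlap were found for 3.61% of all tested genes in the higher and 6% in the lower direction. Without both dishes numbered 2 there were 4 higher and 2 lower of 10 tested (against 3.48% and 3.3% of all tested genes), the median was 0.19, and Col1a1 was under an edgeR FDR of 0.05 (log2 fold change 0.63, FDR 0.00674). The summed level of the fibroblast markers was 3565, 3188 and 3482 RPKM in control and 3724, 3391 and 3815 RPKM in hPARG dishes. The part of these genes in the values of Egr1, Fos, Fosl1 and Myc was not tested.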

How the data were processed

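RNA-seq of 6 cultures was analysed. Poly(A) libraries were sequenced as paired-end reads, and the authors used CLC Genomics Workbench 12.0 for mapping to GRCm38 with Ensembl 96 genes. The deposited counts are whole numbers per gene and carry no normalization. The deposited RPKM values were made by the authors' software with gene lengths and a library total that are not stated. Fold change and p-value columns of the authors' own comparison were not used. Whether counting used strand is not given in the sources used here.

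Of 41819 genes, 11509 passed filterByExpr (minimum count 10) and were fitted with edgeR 4.0.16 (TMM, glmQLFit and glmQLFTest, no block) in R 4.3.3. The p-values were two-sided and Benjamini-Hochberg adjusted over all tested genes, and a gene was called at an FDR under 0.05 and more than 2-fold. Standard errors come from the log2 fold change and the F statistic. An exact permutation test of 3 against 3 dishes cannot give a p under 0.1 and was not used. Alternatives were library size only, RLE size factors, DESeq2 1.42.0, 2 other filters on low counts, limma 3.58.1 on log2(RPKM + 0.1), a replicate block, a correction for gene length, and dishes left out. Gene lists under other scalings and without both dishes numbered 2, and counts at any fold change, were chosen after seeing the data. The scripts were tested on simulated data. Promoters came from RefSeq (GRCm38.p6) and gene positions from GENCODE M21.

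The members and gene lists were chosen with earlier results of these data known. The text names the 10 genes, the genes of each list that were called, had an unadjusted p under 0.05 or were among the 2 with the smallest p, and the 3 genes with the nearest profile for Egr1 (smallest p) and Fos (widest range). Not all genes that this rule or the lists hold are reported here.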

Additional observations from a re-analysis of the deposited data

How the results depend on the processing

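None of the 10 genes passed an FDR of 0.05 together with a difference above 2-fold in any of the 16 alternatives. Over all tested genes, 10 were called, and this became 16 with no filter on low counts, 22 with DESeq2, 19 with the correction for gene length, 19 without both dishes numbered 2, and between 3 and 13 with each dish left out (3 without hPARG dish 1, 5 without hPARG dish 3). At an FDR under 0.05 and any fold change, a count chosen after seeing the data, there were 10 genes, and 16, 48, 25 and 40 under the first 4 of these settings, and between 3 and 13 with each dish left out. Under an FDR of 0.05 there were 0 of the 10 genes in the edgeR fit of all dishes, and 1 with DESeq2 (Egr1, log2 fold change 0.77, FDR 0.00328) and 1 without both dishes numbered 2 (Egr1, 0.94, FDR 0.00245). In other settings the FDR of Egr1 reached up to 1.00. The cause of these differences was not tested.

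After the group means were subtracted, r across genes was 0.0963, 0.61 and 0.168 between control and hPARG dishes of the same number. Control dish 1 correlated best with hPARG dish 3 (r = 0.207), and control dish 3 with hPARG dish 1 (r = 0.335), so not every dish correlated best with its own number and pairing is not established. With the replicate block, 23 genes were called and 330 passed the FDR, and with the block and the length correction 25 and 276. The block placed 3 of the 10 genes under an FDR of 0.05, Egr1 (0.76, FDR 0.00119), Fosl1 (-0.34, FDR 0.0122) and Myc (-0.33, FDR 0.00834). With the length correction as well these were also 3, Egr1 (0.76, FDR 0.00437), Fosl1 (-0.32, FDR 0.0342) and Myc (-0.31, FDR 0.0148). In the gene lists, a count added after seeing the data, the block placed 1 higher and 7 lower of 42 other early response genes under an FDR of 0.05, 1 and 3 of 16 AP-1 targets, 4 and 1 of 9 fibroblast markers, 1 higher phosphatase and 1 higher gene of the MYC and MAX network, against 1.31% higher and 1.56% lower of all tested genes.

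Groups did not overlap for 3 of the 10 genes (9.62% of all tested genes), for 4 with RLE, library size only, 10 counts in every dish or DESeq2 (9.7% to 10.2%), for 5 with limma on log2 RPKM (10% of all), and for 6 without both dishes numbered 2, where 35.4% of all tested genes separated. With each dish left out it was between 3 and 5, against 14.7% to 23.7% of all. With each dish left out, the log2 fold change of Fosl2 lay between -0.28 and 0.062, of Ier3 between -0.14 and 0.042 and of Jund between -0.19 and 0.029, and Jund had 0.016 without both dishes numbered 2. Those of Egr1, Fos, Fosb, Fosl1, Jun, Junb and Myc kept their sign in all 16 alternatives. By counts in place of RPKM the control shares were 0.185% for Fos, 34.99% for Fosl1, 64.4% for Fosl2, 24.8% for Jun and 58.7% for Jund.

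Other scalings moved the median of all genes by under 0.1 on the log2 scale. The small number of reads limits Fos, Fosb and Mt1, and 3 dishes a group limit every gene.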
